A study of Rattus norvegicus with 8 samples.

Results

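The 10 genes described here encode mitochondrial enzymes and carriers of long-chain and medium-chain fatty acid oxidation, and they were chosen by name: Cpt1a, Slc25a20, Cpt2, Acadvl, Acadl, Acadm, Hadha, Hadhb, Acaa2 and Etfdh. All 10 were among the 18090 genes of the deposited table, and all 10 were among the 11921 genes that passed a filter on low values. RNA of abdominal aorta from rats of WT genotype was sequenced as polyA RNA. In the FeCl3 group (4 libraries) a filter paper with 10% iron chloride, which damages the endothelium and is used to provoke thrombosis, had been laid around the vessel for 5 min, and in the saline group (4 libraries) the paper carried 0.9% saline. The samples of a group were described as biologically independent, the labels give 1 batch, and the sources used here state neither the age of the rats nor the time from exposure to harvest. Values are FPKM, fragments scaled by gene length and by library total, which can be compared between genes because of the length.

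In mitochondrial fatty acid oxidation, acyl groups are coupled to carnitine on the outer mitochondrial membrane, exchanged across the inner membrane and returned to coenzyme A in the matrix. A repeated cycle of dehydrogenation, hydration, a further dehydrogenation and thiolysis then shortens the chain and releases acetyl-CoA for the tricarboxylic acid cycle. Heart, skeletal muscle, liver and brown fat are known for high rates of this pathway, and its genes are known targets of the nuclear receptors of the PPAR family, which bind paired AGGTCA motifs together with a retinoid X receptor.

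Hadha and Hadhb encode the alpha and beta subunits of the mitochondrial trifunctional protein, and their gene starts lay 301 bases apart on opposite strands. The 243 bases between the annotated genes are shown because both subunits are described below, in RefSeq's GRCr8 build at chr6:31907558-31907800, plus strand. They end at the Hadha start and leave out the bases next to the Hadhb start, over which the annotated extent of Hadhb reaches. Its capitals mark a GC box (GGGCGG or its reverse complement). The stretch just upstream of Acadvl, chr10:55236706-55236735 on the minus strand of the same build, is shown because it held a pair of such motifs with 1 base between them. Its capitals mark that pair, which has 1 mismatch and begins 17 bases before the gene start.
Hadha and Hadhb, between the genes: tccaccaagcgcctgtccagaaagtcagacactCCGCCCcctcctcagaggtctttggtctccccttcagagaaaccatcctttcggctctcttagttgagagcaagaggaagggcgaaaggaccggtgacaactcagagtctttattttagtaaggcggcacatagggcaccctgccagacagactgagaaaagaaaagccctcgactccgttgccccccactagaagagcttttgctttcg
Acadvl, upstream: gagacgggagaagAGGTCAgTGGTCAaggc
Promoter sequences of 250 bases before to 50 bases after the start were present for 8 of the 10 genes, Acadl and Acaa2 being those that did not match. On either strand, the motif AGGTCA was in 2 of the 8 (Hadhb and Acadvl), and 16.2% of all 33469 promoters held it. The AGGTCA pair, a direct repeat 1 base apart with at most 1 mismatch that can itself count as an AGGTCA match, was in 1 of the 8 (Acadvl), against 0.439% of all promoters. The GC box was in 6 of the 8 (Cpt2, Slc25a20, Acadm, Hadha, Hadhb and Etfdh), against 33.1% of all promoters, and the CCAAT box was in 1 of the 8 (Hadha), against 37.5%. The promoter sequences of Hadha and Hadhb overlap, and the GC box marked above lies in both, so these genes are not separate counts. These are letter matches only, and binding of a factor was not measured.

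None of the 10 enzymes passed correction over all tested genes for a difference between FeCl3 and saline aortas in the fit on FPKM. With limma on log2(FPKM + 1), 0 of 10 passed an adjusted p of 0.05 (Benjamini-Hochberg over all 11921 genes), and 0% of all genes did. At an unadjusted p below 0.05, 1 of 10, Cpt1a, was lower after FeCl3, where 12.2% of all genes were lower, and 0 of 10 were higher, where 4.42% of all genes were higher. A voom fit on fragments recovered from the FPKM steps also called 0 of the 10 and gave the same 1 gene at an unadjusted p below 0.05. All 10 log2 fold changes were below 0, with a median of -0.68, while the median over all tested genes was -0.25 and 70.2% of them were negative. Groups overlapped for all 10 enzymes, whereas 8.75% of all genes had every FeCl3 library below every saline library and 1.06% had every FeCl3 library above.

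The largest feature of the 10 genes was a single control. Saline replicate 2 held the highest value of all 10, and the 10 together took 0.123%, 0.186%, 0.0390% and 0.0618% of all fragments in FeCl3 replicates 1 to 4, against 0.0670%, 0.808%, 0.0979% and 0.0844% in saline replicates 1 to 4. Relative to the median of the other 7 libraries, saline replicate 2 was 2.18-fold higher for Cpt1a and 6.21-fold to 14.0-fold higher for the other 9 enzymes, with Hadha lowest and Cpt2 highest, against a median of 1.22-fold over all tested genes. Without that library 7 of the 10 fold changes were above 0 and 3 (Cpt1a, Acadm and Acadl) were below, the median was 0.16, the median over all genes was -0.17, and 0 of 10 had an unadjusted p below 0.05 (limma, smallest p 0.0880). The fold changes of the 10 enzymes are therefore given with and without saline replicate 2.

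**Figure D1:**
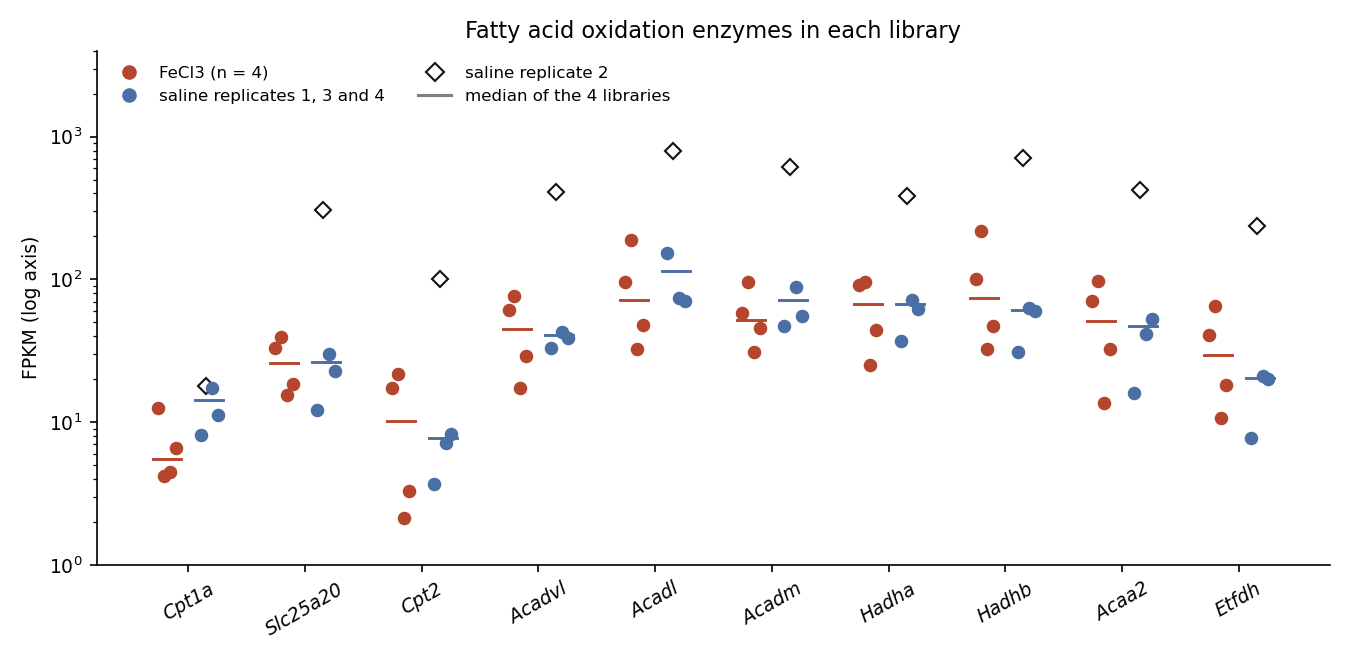
FPKM of the 10 enzymes on a log axis, with 1 point per library, the 4 FeCl3 libraries left of the 4 saline libraries for each gene, and lines at the group medians. Saline replicate 2 (open diamonds) lies above every other library for all 10 genes, by the least for Cpt1a at 17.8 FPKM.

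The same library was highest in several transcripts of brown adipocytes, fat cells that burn fatty acids to make heat. Ucp1, the uncoupling protein that defines them, was at 0.350, 76.5, 0.356 and 0.692 FPKM in FeCl3 replicates 1 to 4, against 0.0275, 6272, 53.1 and 11.7 FPKM in saline replicates 1 to 4. The 9 brown adipocyte markers found in the table, of 10 listed, summed to 34.0 to 283 FPKM in FeCl3 libraries, against 35.3 to 7799.8 FPKM in saline libraries. Most of the sum in saline replicate 2 was Ucp1, followed by Cox8b (834 FPKM), Cidea (424 FPKM) and Dio2 (198 FPKM). That library was highest for 5 of the 7 brown adipocyte markers tested. Of these markers, 3 were at 0 in FeCl3 replicate 3 and 1 was in FeCl3 replicate 4, against 2 for the saline replicate 1 library and 1 for the replicate 3 library. White adipocyte markers (12 of 12 found) summed to 13921, 12959, 511 and 3409 FPKM in FeCl3 replicates 1 to 4, against 26.3, 12238, 444 and 2410.3 FPKM in saline replicates 1 to 4. By sum, FeCl3 replicates 1 and 2 thus held as much of the white adipocyte markers as saline replicate 2, with lower levels of all 10 enzymes. By mean log2(FPKM + 1) that list was highest in saline replicate 2, at 8.50, against 8.32 and 8.12 in FeCl3 replicates 1 and 2. Saline replicate 2 was highest for 7 of the 12 white adipocyte markers tested. The part of white adipocyte RNA in the enzyme values was not tested. These are bulk libraries, so fewer cells of a type and less RNA per cell cannot be told apart. A covariate was made from the mean of 8 brown adipocyte markers, those that reached 1 FPKM in some library. With it in limma, 7 of the 10 fold changes were above 0 and the median of the 10 was 0.20. In that limma fit 0 of the 10 enzymes and 0 of all tested genes passed the adjusted threshold. Hadhb (0.80, unadjusted p = 0.0228, adjusted p = 0.164) and Etfdh (0.96, unadjusted p = 0.0157, adjusted p = 0.151) were higher after FeCl3 before adjustment only. The share of all tested genes at an unadjusted p below 0.05 in that fit is not given here. Whether Hadhb and Etfdh stand out from it therefore cannot be told.

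Other measures of the libraries bear on every value. Totals ranged from 24304434 to 30283292 fragments, and the enzymes were covered by 126 (Cpt2 in FeCl3 replicate 3) to 42733 (Hadhb in saline replicate 2) fragments, so that counting error was small beside the spread between samples. Haemoglobin transcripts took 24.7%, 16.5%, 34.1% and 20.03% of fragments in FeCl3 replicates 1 to 4, against 1.64%, 1.31%, 1.498% and 16.6% in saline replicates 1 to 4. Smooth muscle markers (10 of 10 found, none at 0 in any library), which define the vessel's media, summed to 3936 to 11248 FPKM in FeCl3 libraries, against 5334 to 27836 FPKM in saline libraries. Markers of skeletal and cardiac muscle, tissues rich in the pathway, summed to 17.9 to 62.5 FPKM in FeCl3 libraries, against 19.9 to 86.9 FPKM in saline libraries. By sum that list was highest in saline replicate 2. Tnnc2, the fast skeletal troponin C, stood at 48.4 FPKM there, 18.2-fold over the median of the other 7 libraries. Ckm, the muscle creatine kinase, was at 6.56 FPKM there and highest in saline replicate 3, at 9.34 FPKM. By mean log2(FPKM + 1) the list was highest in FeCl3 replicate 1 (1.71, against 1.54 in saline replicate 2). Saline replicate 2 was highest for 1 of the 4 muscle markers tested. Of all 13, 1 to 4 were at 0 in FeCl3 libraries and 3 to 7 in saline libraries. With the haemoglobin share as a covariate in limma, 9 of the 10 fold changes were above 0, the median of the 10 was 0.58, and 0 of 10 passed the threshold. The part of muscle RNA in the differences between groups was not tested.

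**Figure D2:**
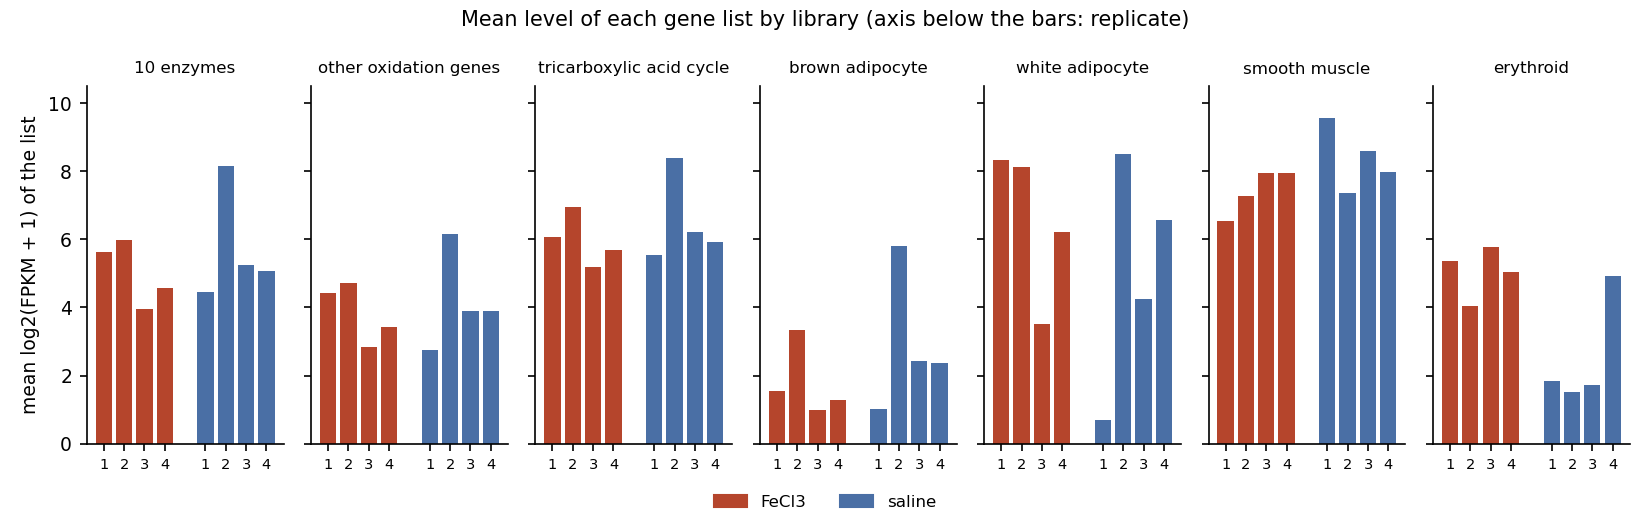
Mean log2(FPKM + 1) of each gene list (bars) in FeCl3 replicates 1 to 4, left, and saline replicates 1 to 4, right, in each panel. The 10 enzymes, the other oxidation genes, the tricarboxylic acid cycle genes and the brown and white adipocyte markers are highest in saline replicate 2. For white adipocyte markers the lead is small, at 8.50 against 8.32 in FeCl3 replicate 1. Erythroid markers are high in the FeCl3 libraries and in saline replicate 4.

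Entry of acyl groups into the mitochondrion was represented by Cpt1a, Slc25a20 and Cpt2. Cpt1a, the liver-type carnitine palmitoyltransferase of the outer membrane and the regulated entry step, had 12.6, 4.21, 4.44 and 6.63 FPKM in FeCl3 replicates 1 to 4, against 8.18, 17.8, 17.3 and 11.1 FPKM in saline replicates 1 to 4. The FeCl3 libraries filled the 3 lowest places, and only FeCl3 replicate 1 lay within the saline range. Means were 6.96 ± 3.90 FPKM in FeCl3 aortas and 13.6 ± 4.71 FPKM in saline aortas (SD, n = 4 each). By limma the log2 fold change was -0.93 (SE 0.37, 95% interval -1.78 to -0.075, unadjusted p = 0.0361, adjusted p = 0.280), and it was -0.78 without saline replicate 2 (95% interval -1.71 to 0.15). After rescaling each library to TPM, which moved the median of all tested genes to -0.90 and put 3223 genes past the threshold as lower and 65 as higher, Cpt1a passed at -1.65 (limma, adjusted p = 0.0408).

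Slc25a20, the carnitine-acylcarnitine carrier of the inner membrane, had 33.2, 39.3, 15.6 and 18.4 FPKM in FeCl3 replicates 1 to 4, against 12.1, 305, 29.8 and 23.0 FPKM in saline replicates 1 to 4. Apart from saline replicate 2, both groups covered much the same range. With limma the log2 fold change stood at -0.68 (SE 0.88, adjusted p = 0.701) over all libraries and at 0.28 without saline replicate 2. Cpt2, which returns the acyl group to coenzyme A on the matrix side, had 17.2, 21.8, 2.12 and 3.30 FPKM in FeCl3 replicates 1 to 4, against 3.70, 101, 7.19 and 8.23 FPKM in saline replicates 1 to 4. FeCl3 replicates 1 and 2 lay above 3 of the saline libraries, and FeCl3 replicates 3 and 4 lay below all 4. Cpt2 had the widest range of the 10 enzymes, 47.6-fold between its highest and lowest library and 10.3-fold without saline replicate 2, and limma put its log2 fold change at -0.68 (SE 1.03, adjusted p = 0.749), or 0.29 without that library.

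Cpt1b, the muscle-type form of the outer membrane enzyme, is no member but is paired with Cpt1a. It had 3.78, 8.16, 0.273 and 1.42 FPKM in FeCl3 replicates 1 to 4, against 0.152, 156, 3.34 and 4.21 FPKM in saline replicates 1 to 4. Cpt1b was thus highest in saline replicate 2 and next in FeCl3 replicate 2, the library with the lowest Cpt1a. The ratio of Cpt1a to Cpt1b FPKM was 3.33, 0.516, 16.3 and 4.67 in FeCl3 replicates 1 to 4, against 54.0, 0.114, 5.16 and 2.65 in saline replicates 1 to 4. Cpt1b was the more abundant form in FeCl3 replicate 2 and saline replicate 2 and Cpt1a in the other 6 libraries. The mean log2 ratio was 1.76 ± 2.06 in FeCl3 aortas and 1.60 ± 3.66 in saline aortas (SD, n = 4 each; exact two-sided permutation test, p = 0.943). The same 2 libraries had the lowest ratios of Cpt1a to Cpt2, 0.193 and 0.177, while the other 6 ranged from 0.729 to 2.40.

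The first dehydrogenation of the cycle was represented by 3 acyl-CoA dehydrogenases of different chain length. Acadvl, for very long chains and bound to the inner membrane, had 61.0, 76.1, 17.2 and 29.0 FPKM in FeCl3 replicates 1 to 4, against 33.3, 412, 43.0 and 38.7 FPKM in saline replicates 1 to 4. The 3 other saline libraries lay close together, between the lower and the higher FeCl3 pair. For Acadvl limma gave -0.81 on the log2 scale (SE 0.83, adjusted p = 0.625), and 0.039 without saline replicate 2 (95% interval -1.09 to 1.17). Acadm, for medium chains, had 58.1, 95.8, 31.1 and 46.0 FPKM in FeCl3 replicates 1 to 4, against 46.9, 612, 88.0 and 55.3 FPKM in saline replicates 1 to 4. The groups were interleaved apart from saline replicate 2, and the limma log2 fold change was -1.02 with it (SE 0.77, adjusted p = 0.503) and -0.20 without it.

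Acadl, for long chains, had the highest mean of the dehydrogenases in both groups, with 96.2, 189, 32.7 and 48.1 FPKM in FeCl3 replicates 1 to 4, against 154, 795, 74.6 and 70.5 FPKM in saline replicates 1 to 4. In saline replicate 1, where each of the other 9 enzymes was among its 4 lowest libraries, Acadl was the third highest of the 8 libraries. It made up 44.1% of the summed FPKM of the 10 enzymes there, against 16.3% to 21.0% in the other 7 libraries. Its limma log2 fold change was -1.11 (SE 0.83, adjusted p = 0.499), and -0.34 without saline replicate 2. The ratio of Acadvl to Acadl was 0.634, 0.402, 0.526 and 0.603 in FeCl3 replicates 1 to 4, against 0.216, 0.518, 0.577 and 0.549 in saline replicates 1 to 4, so that saline replicate 1 lay below all others. The ratio of Acadm to Acadl was also lowest there, at 0.304, against 0.506 to 1.18 in the other 7 libraries. Differences between groups in the mean log2 ratio were 0.30 for Acadvl to Acadl (exact two-sided permutation test, p = 0.514) and 0.09 for Acadm to Acadl (exact two-sided permutation test, p = 0.886).

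Later steps of the cycle for long chains are carried by the trifunctional protein. Hadha, the alpha subunit with hydratase and dehydrogenase activity, had 90.8, 95.4, 25.1 and 44.0 FPKM in FeCl3 replicates 1 to 4, against 36.8, 386, 72.0 and 62.2 FPKM in saline replicates 1 to 4. FeCl3 replicates 1 and 2 were above the saline libraries other than replicate 2, FeCl3 replicate 3 was below all of them, and FeCl3 replicate 4 was above saline replicate 1 only. For Hadha the limma log2 fold change was -0.67 (SE 0.73, adjusted p = 0.645), and 0.023 without saline replicate 2. Hadhb, the beta subunit with the thiolase activity, had 101, 219, 32.6 and 47.5 FPKM in FeCl3 replicates 1 to 4, against 30.8, 710.1, 62.8 and 59.8 FPKM in saline replicates 1 to 4. The order of its libraries was close to that of Hadha, with saline replicate 1 lowest. The Hadhb log2 fold change by limma was -0.31 (SE 0.97, adjusted p = 0.885), and 0.64 without saline replicate 2.

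The paired subunits did not keep a constant ratio. Hadha to Hadhb was 0.896, 0.435, 0.771 and 0.925 in FeCl3 replicates 1 to 4, against 1.19, 0.544, 1.15 and 1.04 in saline replicates 1 to 4. All 4 FeCl3 libraries were below 1, as was saline replicate 2, and 3 saline libraries were above 1. The difference in the mean log2 ratio was -0.37 (exact two-sided permutation test, p = 0.371), and the groups overlapped through saline replicate 2. Hadhb exceeded Hadha most in FeCl3 replicate 2 and saline replicate 2, the 2 libraries with the highest Ucp1 (76.5 and 6272 FPKM). Saline replicate 3, the next in Ucp1 at 53.1 FPKM, had a ratio of 1.15. A link between the ratio and Ucp1 was not tested.

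Acaa2, the thiolase that acts on medium chains, had 70.4, 96.8, 13.5 and 32.5 FPKM in FeCl3 replicates 1 to 4, against 16.1, 424, 41.7 and 52.4 FPKM in saline replicates 1 to 4. FeCl3 replicate 3 and saline replicate 1 were lowest, so each group held 1 of the low libraries. By limma, Acaa2 differed by -0.57 on the log2 scale (SE 0.97, adjusted p = 0.776), and by 0.34 without saline replicate 2. Etfdh, the oxidoreductase that passes electrons from the acyl-CoA dehydrogenases to ubiquinone, had 40.6, 65.2, 10.8 and 18.3 FPKM in FeCl3 replicates 1 to 4, against 7.70, 238, 20.9 and 20.1 FPKM in saline replicates 1 to 4. After saline replicate 2 the next 2 places were FeCl3 libraries, and saline replicate 1 was lowest. The limma log2 fold change of Etfdh, -0.15 (SE 0.98, adjusted p = 0.943), was the smallest of the 10, and it was 0.82 without saline replicate 2 (95% interval -0.62 to 2.26).

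**Figure D3:**
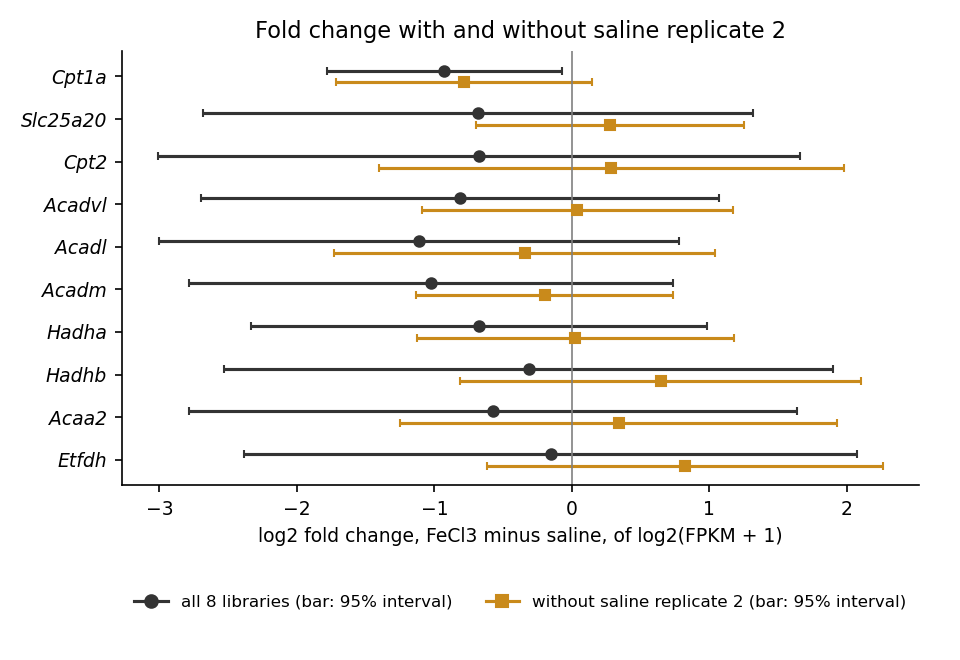
Log2 fold change of each enzyme, FeCl3 minus saline, with its 95% limma interval, for all 8 libraries (circles) and without saline replicate 2 (squares). Circles run from -1.11 for Acadl to -0.15 for Etfdh, and squares from -0.78 for Cpt1a to 0.82 for Etfdh.

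For the electron carriers, Etfdh was set against Etfa, a subunit of the flavoprotein that feeds it. The ratio was 0.327, 0.240, 0.246 and 0.279 in FeCl3 replicates 1 to 4, against 0.213, 0.477, 0.386 and 0.311 in saline replicates 1 to 4. Saline libraries held both the highest and the lowest ratio, and the difference in the mean log2 ratio was -0.29 (exact two-sided permutation test, p = 0.343). The remaining ratios differed between groups by -0.27 for Acaa2 to Hadhb (exact permutation test, p = 0.343), -0.27 for Cpt1a to Cpt2 (exact permutation test, p = 0.743) and 0.08 for Slc25a20 to Cpt2 (exact permutation test, p = 0.857). Over the 8 ratios computed the adjusted p was 0.943 for each, where the smallest raw p that 4 against 4 libraries allow is 0.0286.

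**Figure D4:**
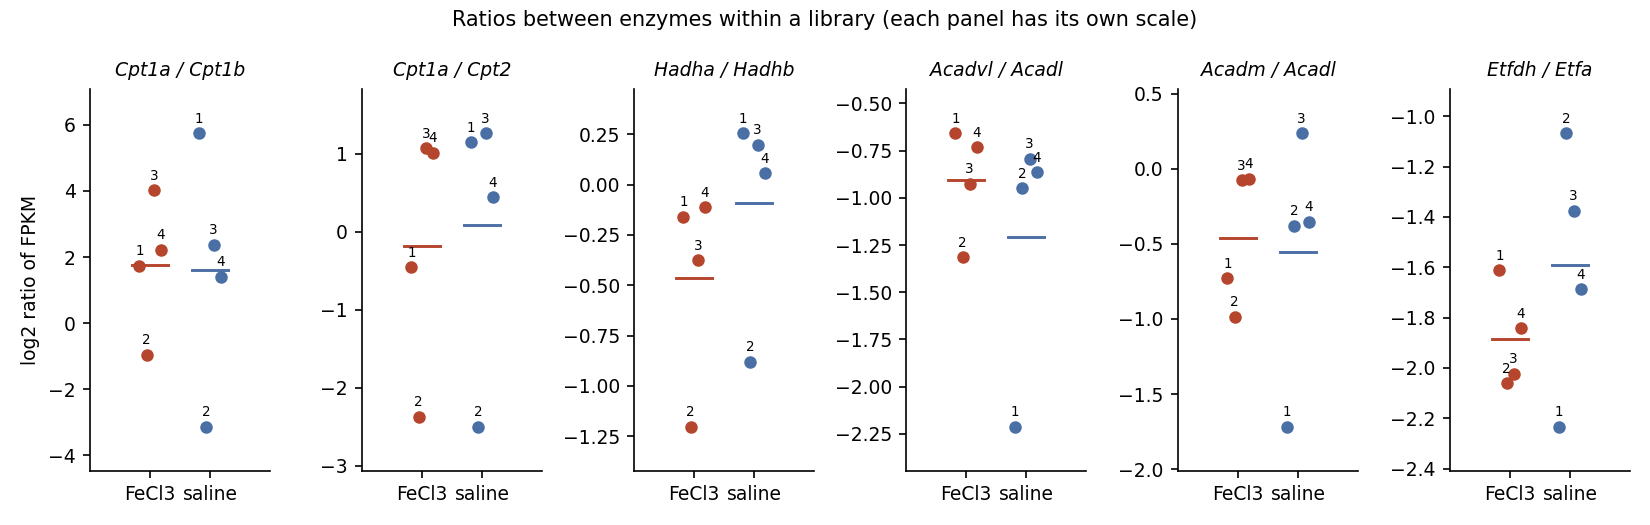
Log2 ratio of FPKM between enzymes within each library, numbered by replicate, FeCl3 left of saline, with lines at group means and a separate scale in each panel. FeCl3 replicate 2 and saline replicate 2 have the lowest Cpt1a to Cpt1b, Cpt1a to Cpt2 and Hadha to Hadhb ratios, and saline replicate 1 has the lowest Acadvl to Acadl and Acadm to Acadl ratios.

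Levels of 9 enzymes moved together from library to library, and Cpt1a did not follow them closely. Over the 8 libraries the median Pearson r of log2(FPKM + 1) was 0.96 for the 36 pairs that leave out Cpt1a and 0.50 for the 9 pairs of Cpt1a with another enzyme, and it was 0.20 over all pairs of tested genes. Without saline replicate 2 these were 0.88 for the 36 pairs and 0.21 for the 9 pairs with Cpt1a. The points share libraries and library totals, so these coefficients only describe the 8 libraries. Hadha followed the mean of the other 9 best (r = 0.993, rho = 1), then Acadvl (r = 0.993, rho = 0.976), while Acadl (r = 0.873, rho = 0.762) and Cpt1a (r = 0.499, rho = 0.452) followed it least. Without the 2 libraries farthest from the median, saline replicate 2 and FeCl3 replicate 3, r was 0.974 for Hadha, 0.961 for Acadvl, 0.302 for Acadl and -0.212 for Cpt1a. FeCl3 replicate 2 was the second highest library for 9 enzymes and the lowest for Cpt1a, and FeCl3 replicate 3 was the lowest or second lowest for all 10. The residual SD of the 9 was above that of 91.9% to 97.4% of tested genes, and that of Cpt1a was above 63.5%.

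Genes outside the 10 with a profile nearest to their mean, by Pearson r over the 8 libraries, were Babam2 (r = 0.995), Cs (r = 0.992), Pgd (r = 0.990), Pdp2 (r = 0.989), Suclg1 (r = 0.988), MGC94207 (r = 0.988), Decr2 (r = 0.987) and Uqcrc1 (r = 0.987), with Spearman's rho from 0.952 to 1. Leaving out the same 2 libraries, r was 0.915 to 0.974. Cs, citrate synthase, and Suclg1, a subunit of succinyl-CoA ligase, belong to the tricarboxylic acid cycle. Cs had 67.5, 109, 26.9 and 44.9 FPKM in FeCl3 replicates 1 to 4, against 39.9, 389, 71.6 and 65.8 FPKM in saline replicates 1 to 4. As for Hadha, saline replicate 2 and FeCl3 replicate 2 were highest and saline replicate 1 and FeCl3 replicate 3 lowest. Pgd is an enzyme of the pentose phosphate pathway, Pdp2 a pyruvate dehydrogenase phosphatase, Decr2 a peroxisomal dienoyl-CoA reductase and Uqcrc1 a subunit of the respiratory chain's cytochrome c reductase.

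Of the 28 other fatty acid oxidation genes listed, 27 were tested, and 0 passed the threshold (limma, Benjamini-Hochberg). Their fold changes were above 0 for 9 and below 0 for 18, with a median of -0.34 that was 0.30 without saline replicate 2, the library with the highest value of 25 of them. Acsl1, which activates long-chain fatty acids to acyl-CoA, had 244, 292, 11.9 and 36.3 FPKM in FeCl3 replicates 1 to 4, against 5.42, 861, 36.3 and 90.3 FPKM in saline replicates 1 to 4. Its libraries thus spread more widely than those of any of the 10 enzymes. Hadh, the dehydrogenase for shorter chains, chosen after its values were seen, had 119, 215, 26.8 and 47.6 FPKM in FeCl3 replicates 1 to 4, against 19.5, 566, 47.2 and 62.0 FPKM in saline replicates 1 to 4. At an unadjusted p below 0.05 only Acsl4, an acyl-CoA synthetase that prefers arachidonate, was lower after FeCl3 (limma log2 fold change -1.13, SE 0.39, adjusted p = 0.258, or -0.98 without saline replicate 2), and it was chosen after its values were seen.

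Among 17 listed regulators of the pathway, 15 were tested and 0 passed, with 3 fold changes above 0 and 12 below and a median of -0.30. Without saline replicate 2 there were 6 above 0 and 9 below, with a median of -0.14. The coactivator Ppargc1b and the AMP-activated kinase subunit Prkaa2 were named after their values were seen, since their groups did not overlap. These are 2 of the 15, beside the 8.75% of all tested genes with every FeCl3 library below every saline library. Ppargc1b had 0.973, 0.966, 0.811 and 1.84 FPKM in FeCl3 replicates 1 to 4, against 2.49, 19.5, 3.26 and 1.91 FPKM in saline replicates 1 to 4 (limma log2 fold change -1.37, SE 0.58, adjusted p = 0.289). The value was -0.73 when saline replicate 2 was left out and -0.18 with the haemoglobin covariate. Prkaa2 had 3.15, 7.80, 7.203 and 8.24 FPKM in FeCl3 replicates 1 to 4, against 24.2, 16.6, 14.6 and 8.64 FPKM in saline replicates 1 to 4 (limma log2 fold change -1.148, SE 0.37, adjusted p = 0.248). For Prkaa2 these alternatives gave -1.10 without saline replicate 2 and -0.30 with the haemoglobin covariate. The haemoglobin share largely follows the group, so the fit with it cannot separate them well. Ppargc1b and Prkaa2 both lay lower in every FeCl3 library, by little against saline replicate 4. Ppargc1a, the related coactivator that is induced in brown fat, did not pass the filter on low values, and Ppara, the receptor most active in liver and heart, stood at 0.265 to 1.45 FPKM in FeCl3 libraries, against 0.564 to 20.1 FPKM in saline libraries. Both were chosen after their values were seen and were highest in saline replicate 2.

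Of 12 other listed PPAR targets 9 were tested and 0 passed, with 3 fold changes above 0, 6 below and a median of -0.40, which was 0.38 without saline replicate 2. Ucp2, an uncoupling-protein relative that is also abundant in leukocytes, had 704, 216, 753 and 399 FPKM in FeCl3 replicates 1 to 4, against 26.5, 55.1, 55.8 and 261 FPKM in saline replicates 1 to 4. It was the only one of the 9 at an unadjusted p below 0.05 (limma log2 fold change 2.74, SE 0.69, adjusted p = 0.245), and its high saline library was replicate 4. Its log2 fold change was 2.64 without saline replicate 2 and 0.35 with the haemoglobin covariate. Leukocyte markers (10 of 10 found) summed to 1026, 861, 535 and 1038 FPKM in FeCl3 replicates 1 to 4, against 17.8, 148, 92.0 and 756 FPKM in saline replicates 1 to 4, with 4 at 0 in saline replicate 1. Erythroid markers other than haemoglobin (10 of 10 found, none at 0 in any library) summed to 2798, 1029, 3746 and 1853 FPKM in FeCl3 replicates 1 to 4, the same order of libraries as for Ucp2, against 104, 62.5, 86.4 and 1573 FPKM in saline replicates 1 to 4. The part of leukocyte RNA in the Ucp2 values was not tested. All 17 tricarboxylic acid cycle genes were tested and had fold changes below 0 (median -0.44), and 0 passed. Without saline replicate 2, which was highest for all 17, 4 were below 0 and 13 above, with a median of 0.13. The 14 peroxisomal oxidation genes had 5 fold changes above 0 and 9 below (median -0.16), and the 13 genes of mitochondrial import and membranes had 1 above and 12 below (median -0.32), with 0 past the threshold in either list. Without saline replicate 2 the peroxisomal genes had 10 above 0 and 4 below (median 0.19), and the import and membrane genes had 6 above and 7 below (median -0.0012).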

How the data were processed

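PolyA RNA of 4 FeCl3 and 4 saline aortas was sequenced. The authors deposited FPKM, 1 value for each gene in each library. Tools named per the submitters' processing notes are HTSeq, HISAT2 and fastp, with the build mRatBN7.2, while versions, annotation and gene lengths are not given in the sources used here. Fragments were recovered from the steps of low FPKM values (100% of genes whole within 0.02) for depth and for 1 alternative. The recovery and the test were tried on simulated data. For the test, the simulated spread was capped below the residual SD of every enzyme except Cpt1a. That trial therefore does not show what could be detected for those enzymes.

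Genes that reached an FPKM of 1 in 4 or more of the 8 libraries entered the test on log2(FPKM + 1), a scale that understates the change of low genes, with limma 3.58.1 in R 4.3.3 (trend, two-sided, Benjamini-Hochberg, threshold 0.05). Ratios were tested by exact permutation with scipy 1.17.1 in Python 3.11.15, and figures were drawn with matplotlib 3.10.9. Limma p-values set the difference between groups against the spread between these samples, moderated over all genes. Permutation p-values set it against the differences found when the libraries are relabelled. RefSeq promoters of build GRCr8 served for sequences only.

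The 10 genes and the 18 lists (217 of 220 entries found) were chosen with earlier results of these data known. Named are the 10, all genes of the ratios, of each list described the passing members or else its most abundant ones, and the 8 genes most like the 10. Others named were chosen after their values were seen. Alternatives were other pseudocounts, filters, scalings, covariates and variance options, voom, and each library left out.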

Additional observations from a re-analysis of the deposited data

Results flagged for a closer look

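In 9 of 20 enzyme groups a single library lay farther from the rest of its group than a Dixon test at the 95% level allows, and in each it was saline replicate 2. Its values were 101 FPKM for Cpt2, 305 FPKM for Slc25a20, 412 FPKM for Acadvl, 795 FPKM for Acadl, 612 FPKM for Acadm, 386 FPKM for Hadha, 710.1 FPKM for Hadhb, 424 FPKM for Acaa2 and 238 FPKM for Etfdh. Cpt1a was the exception in that library. Among 16 ratio groups, the log2 ratio of Acadvl to Acadl in saline replicate 1, -2.21, was the only one so far from the rest. For normally distributed values, chance alone gives about 1 in 20 groups such a library, and groups that share a library are not independent of each other. The enzymes were tested on FPKM and the ratios on a log2 scale, so the rate need not hold for the enzymes.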

How the results depend on the processing

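Of 230 enzyme fold changes under 23 alternatives, 199 kept their direction and side of the threshold, 30 changed sign and 1, Cpt1a under TPM scaling (log2 fold change -1.65), passed the threshold. Under TPM scaling 1 of the 10 enzymes, 2 of the other fatty acid oxidation genes (Acsl3 and Acsl4) and 3288 of all genes passed; the smallest adjusted p of an enzyme elsewhere was 0.151 (limma). All genes past the threshold numbered 51 when saline replicates 2 and 3 were the sole controls and 0 to 160 when 1 library was left out, 160 being without saline replicate 4. Etfdh was above 0 with median-of-ratios scaling (0.080), quantile normalization (0.058), haemoglobin left out of the total (0.15) and array weights (0.092). With a haemoglobin covariate the fold changes were 0.57 for Cpt2, 0.48 for Acadm, 0.67 for Acadl, 0.59 for Acadvl, 0.34 for Hadha, 1.05 for Hadhb, 0.36 for Acaa2, 1.08 for Etfdh and 0.59 for Slc25a20. Their SEs ran from 1.24 for Acadm to 1.79 for Cpt2, and the haemoglobin share largely follows the group. With a brown adipocyte covariate the fold changes were 0.43 for Cpt2, 0.084 for Acadvl, 0.11 for Hadha, 0.80 for Hadhb, 0.50 for Acaa2, 0.96 for Etfdh and 0.30 for Slc25a20. Leaving out 1 library gave -1.20 to 0.34 for Acaa2, -1.16 to 0.039 for Acadvl, -1.19 to 0.29 for Cpt2, -0.77 to 0.82 for Etfdh, -1.10 to 0.023 for Hadha, -0.85 to 0.64 for Hadhb and -1.24 to 0.28 for Slc25a20, the upper value each time without saline replicate 2. The median of the 10 ranged from -1.14 to 0.16 when 1 library was left out, was -1.69 with saline replicates 2 and 3 alone as controls, -1.41 under TPM scaling, 0.58 with the haemoglobin covariate and 0.20 with the brown adipocyte covariate. The median of all genes was -0.90 under TPM scaling, -0.04 with median-of-ratios scaling, -0.06 with quantile normalization and 0.01 with haemoglobin left out of the total. Of 80 ratio results 16 changed sign. Slc25a20 to Cpt2 was -0.0087 with a pseudocount of 1, and with saline replicates 2 and 3 alone as controls Acadm to Acadl was -0.39, Acadvl to Acadl -0.036, Cpt1a to Cpt2 0.43 and Slc25a20 to Cpt2 -0.034. Leaving out 1 library gave -0.30 to 0.35 for Acadm to Acadl, -0.038 to 0.43 for Acadvl to Acadl, -1.42 to 1.54 for Cpt1a to Cpt1b, -1.14 to 0.45 for Cpt1a to Cpt2 and -0.28 to 0.39 for Slc25a20 to Cpt2. The cause of these changes was not tested. The deposited values hold 4 libraries per group, and the spread between them, not depth, limits what could be detected. No paired analysis was possible because the sample titles of the groups have only 1 number in common, and the replicate numbers used here are names given in accession order.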

Other observations

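Saline replicate 1, the library with the largest share of Acadl among the enzymes, also had the highest Hspb1 and Klf15; the genes given here were chosen after their values were seen. Hspb1, a small heat shock protein, was at 168 to 205 FPKM in FeCl3 libraries, against 10156, 172, 291 and 283 FPKM in saline replicates 1 to 4. Klf15, a transcription factor of fasting metabolism, was at 16.6, 7.47, 2.06 and 3.49 FPKM in FeCl3 replicates 1 to 4, against 28.2, 6.31, 8.42 and 5.52 FPKM in saline replicates 1 to 4. Pdk4, the kinase that restrains pyruvate oxidation, and Fabp3, the heart-type fatty acid binding protein, stood apart in saline replicate 2 instead. Pdk4 was at 31.0, 51.1, 2.48 and 9.71 FPKM in FeCl3 replicates 1 to 4, against 29.4, 553, 27.9 and 17.0 FPKM in saline replicates 1 to 4. Fabp3 was at 3.20 to 22.3 FPKM in FeCl3 libraries, against 3.88, 975, 26.1 and 7.27 FPKM in saline replicates 1 to 4. Adipoq, an adipocyte hormone, was at 74.4 to 1664 FPKM in FeCl3 libraries, against 0.1999, 702, 27.5 and 376 FPKM in saline replicates 1 to 4. Cidea, a brown adipocyte marker, was at 27.6 to 121 FPKM in FeCl3 libraries, against 25.9, 424, 27.1 and 28.9 FPKM in saline replicates 1 to 4.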
